A study of Mus musculus with 3 samples.

Results

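Levels of 10 transcription factor genes that set the fate of T cells were measured in the T cells that infiltrate the pancreatic islets of NOD mice, a strain that develops autoimmune diabetes spontaneously. The genes were Tox, Tox2, Tcf7, Eomes, Tbx21, Id2, Id3, Bcl6, Prdm1 and Batf, out of 32285 genes in the count tables, and all 10 passed the filter on low counts that left 10839 genes to test. The 3 libraries (replicates 1, 2 and 3) shared a single condition and came, by the study's methods, from 2 experiments, although which library came from which is not given in the sources used here. Each held live CD45+ cells sorted from the dispersed islets of untreated wild-type female NOD mice, pooled from 2 to 3 animals of 15 to 16 weeks by the study's methods, and read by droplet-based 3′ single-cell RNA sequencing. Of 26947 cell barcodes, 26142 held at least 1000 unique molecular identifiers (UMIs, each of which marks 1 captured RNA molecule) and less than 10% mitochondrial UMIs.

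T cells were placed in classes by the UMIs of a few genes. A CD8 cell had at least 1 UMI of Cd3e, at least 2 of Cd8a and Cd8b1 together and none of Cd4. A CD4 cell had at least 1 UMI of Cd3e and of Cd4 and none of Cd8a, Cd8b1 or Foxp3. A regulatory T cell (Treg) had at least 1 UMI of Cd3e and of Foxp3. Each class was split into PD-1+ cells, with at least 1 UMI of Pdcd1, and PD-1- cells, with none. This left 2157 CD8 PD-1-, 1101 CD8 PD-1+, 3855 CD4 PD-1-, 2003 CD4 PD-1+, 748 Treg PD-1- and 923 Treg PD-1+ cells, with 59 cells that met the rule of CD8 and of Treg. A further 4936 B cells, with at least 2 UMIs of Cd79a and none of Cd3e, served as the background for the factors that they held at low levels. Id2, Id3 and Bcl6 were not among these, as their B cell values below show. Prdm1 in B cells overlapped its CD8 PD-1- levels. PD-1+ is a call on RNA, not on surface protein, and a cell without a UMI may still carry the transcript.

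These factors act as opposed pairs and families. TOX, an HMG-box protein, is needed for the exhausted state that T cells enter under lasting antigen contact, and TOX2 is its close relative. TCF-1, the product of Tcf7, keeps memory-like and stem-like cells able to renew, whereas the T-box factors EOMES and T-bet (Tbx21) drive cytotoxic and cytokine genes. ID2 and ID3 bind E proteins and keep them off DNA, and are associated with effector and memory fates, respectively. BCL6 and BLIMP-1 (Prdm1) are repressors that oppose each other in follicular helper, effector and regulatory cells. BATF is an AP-1 family factor that is induced through the antigen receptor.

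The genes lie on 7 autosomes of GRCm38 and all are protein-coding in GENCODE. Tox lies at chr4:6686353-6991557, Tox2 at chr2:163203125-163324170, Tcf7 at chr11:52252371-52283014, Eomes at chr9:118478212-118486132 and Tbx21 at chr11:97098071-97115331. Id2 lies at chr12:25093799-25097140, Id3 at chr4:136143497-136145755, Bcl6 at chr16:23965052-23988852, Prdm1 at chr10:44437177-44528501 and Batf at chr12:85686669-85709087.

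The classes carried the markers that define them, with limits that bear on several results. The 5 T cell markers summed to 3134 to 4758 counts per 1000000 UMIs (CPM) in the T cell classes and to 109.5 to 134 CPM in B cells. B cell markers were also seen in the T cell sums, at 446 to 15570 CPM, and 12.7% of T cells held UMIs of another cell type or met both the CD8 and the Treg rule. Treg lost a larger part than CD8 PD-1- cells when these were left out. Over replicates 1, 2 and 3, Treg PD-1+ went from 122, 359 and 442 to 95, 222 and 322 cells. Treg PD-1- went from 190, 232 and 326 to 161, 163 and 246, and CD8 PD-1- from 329, 850 and 978 to 290, 775 and 924. Replicate 1 was the smallest and shallowest library (5844 barcodes, a median of 4230 UMIs per cell) and had higher Tox, Tox2, Tbx21 and Batf levels than replicates 2 and 3 in CD8 and CD4 cells. PD-1+ cells were deeper than PD-1- cells (medians of 5896 to 8834 against 4932 to 7336 UMIs in CD8 cells over the libraries, and 4720 to 7331 against 4519 to 6134 in CD4 cells), so shares of cells with a UMI are given after thinning every cell to 2000 UMIs. In Treg the median depth was 5416.5 to 11878 UMIs in PD-1+ and 4275.5 to 8040 UMIs in PD-1- cells, a wider gap than in CD8 or CD4 cells. The libraries shared 11 to 25 barcodes in pairs, at most 0.314% of the smaller library.

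In both CD8 and CD4 cells, PD-1+ cells had more Tox, Tox2, Eomes, Id2, Bcl6 and Prdm1 and less Tcf7 than PD-1- cells. In CD8 cells 6 of the 10 genes were higher and 1 was lower in PD-1+ cells, where 6.27% of all genes tested were called higher and 7.32% lower (edgeR's quasi-likelihood test on UMIs summed per library and class, adjusted p under 0.05). In CD4 cells 7 were higher, Batf being the seventh, and 1 was lower, against 7.60% and 8.03% of all genes. The median log2 fold change of the 10 genes was 0.77 in CD8 and 0.78 in CD4 cells, against -0.0072 and -0.0078 over all genes. In Treg edgeR called 0 of the 10 (2 at an unadjusted p under 0.05, Eomes and Id2, which DESeq2 called), and 0.148% of all genes were higher and 0.452% lower. All 3 comparisons rest on the same 3 libraries, which the fit held as blocks. The cycling markers Mki67 and Top2a moved with PD-1 too, from 244, 30.0 and 34.9 CPM in replicates 1, 2 and 3 to 371, 50.3 and 64.9 CPM in CD8 cells and from 136, 16.9 and 23.1 CPM to 360.0, 42.4 and 40.1 CPM in CD4 cells, and their part in the member differences was not tested.

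**Figure D1:**
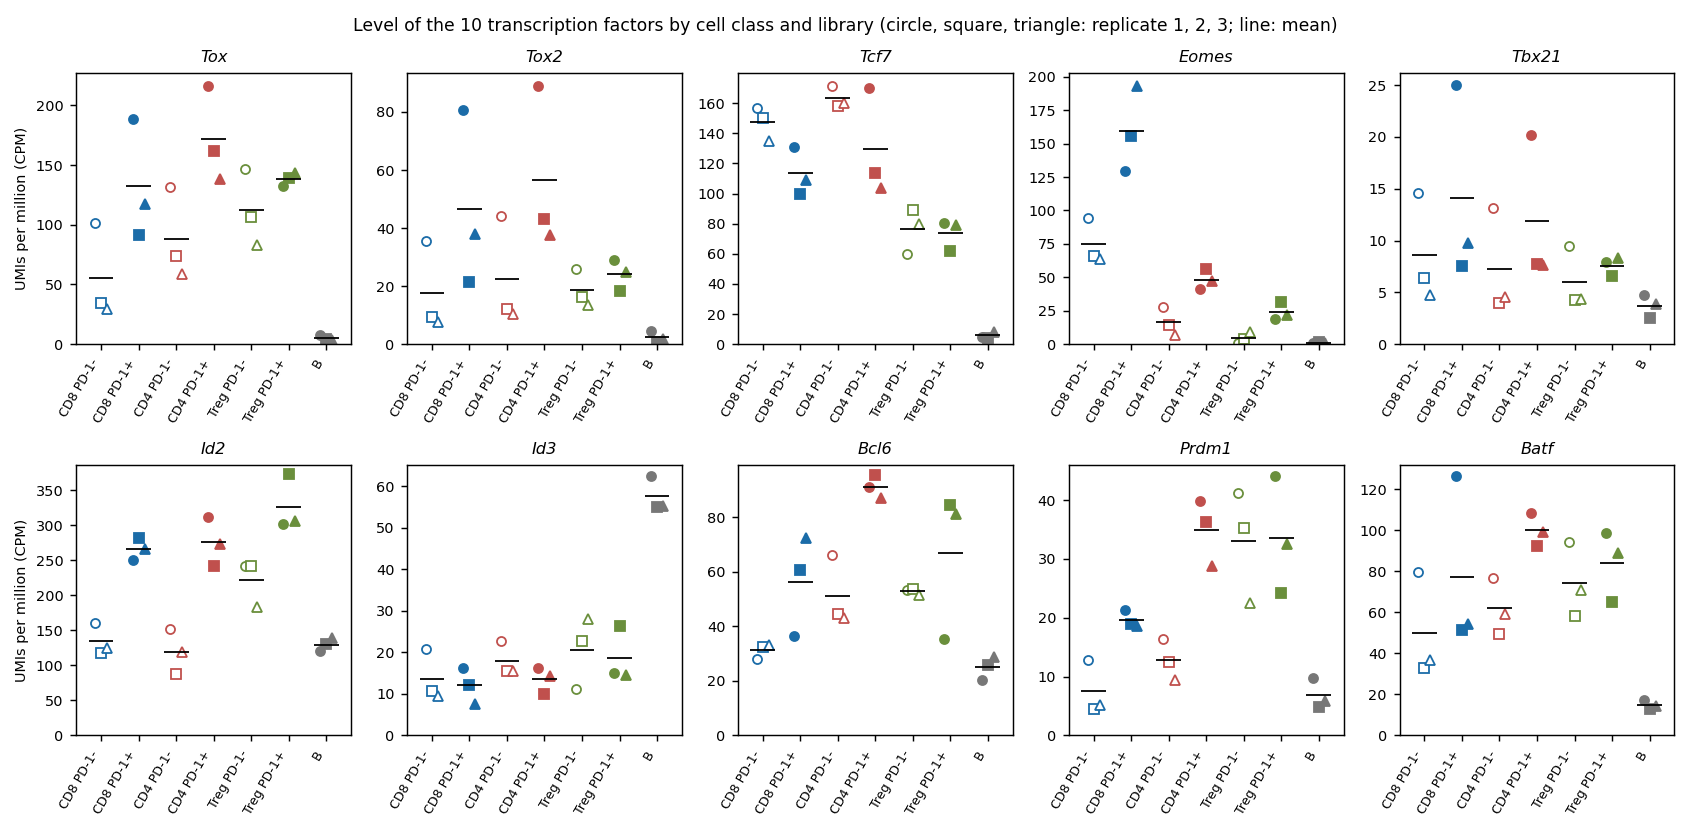
Levels of the 10 factors in CPM (y axis, a scale per gene) in the 6 T cell classes and in B cells (x axis), with a circle, a square and a triangle for replicates 1, 2 and 3, hollow for PD-1- cells, and a line for their mean. Eomes was highest in CD8 PD-1+ cells, at 129 to 193 CPM, and Id3 was highest in B cells, at 55.1 to 62.5 CPM.

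TOX is the factor most closely tied to exhaustion. In replicates 1, 2 and 3, in this order here and below, Tox stood at 101, 34.4 and 29.8 CPM in CD8 PD-1- cells and at 189, 91.3 and 118 CPM in CD8 PD-1+ cells. It rose in PD-1+ cells of every library, although replicate 1 was so high that the ranges of the groups overlapped. The log2 fold change was 1.26 ± 0.20 (SE, n = 3 libraries; edgeR adjusted p = 0.00037). In CD4 cells Tox went from 132, 73.9 and 58.5 CPM to 216, 162 and 138 CPM, a log2 fold change of 0.87 ± 0.19 (edgeR adjusted p = 0.0029). That call was lost without replicate 2 (adjusted p = 0.068) and without replicate 3 (adjusted p = 0.074), with the fold change at 0.85 and 0.79. After thinning, 22.6% ± 11.1 (SD, n = 3) of CD8 PD-1+ and 28.9% ± 6.5 of CD4 PD-1+ cells had a Tox UMI, against 0.776% ± 0.426 of B cells. Before thinning, B cells had median depths of 4309 to 6784 UMIs, below both of these T cell classes in every library.

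Tox2, the relative of Tox, was much higher in replicate 1 than in the other libraries in CD8 and CD4 cells. It stood at 35.4, 9.32 and 7.81 CPM in CD8 PD-1- and at 80.5, 21.3 and 37.9 CPM in CD8 PD-1+ cells. Within each library the PD-1+ cells were higher, and the log2 fold change was 1.41 ± 0.24 (edgeR adjusted p = 0.00065). When the classes were set on cells thinned to 2000 UMIs, it was 1.06 and missed the threshold (adjusted p = 0.11). In CD4 cells Tox2 went from 44.3, 12.1 and 10.5 CPM to 88.9, 43.3 and 37.6 CPM (log2 fold change 1.39 ± 0.21, edgeR adjusted p = 0.00013). A Tox2 UMI was found in 10.0% ± 6.2 of CD8 PD-1+ and 10.9% ± 6.7 of CD4 PD-1+ cells, against 0.342% of B cells.

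Tcf7 moved the other way. CD8 PD-1- cells held 157, 150.2 and 135 CPM and CD8 PD-1+ cells 131, 99.9 and 109 CPM, so that every PD-1+ value lay below every PD-1- value. The log2 fold change was -0.56 ± 0.15 (edgeR adjusted p = 0.016). In CD4 cells the levels were 172, 158 and 160.2 CPM against 170.2, 114 and 104 CPM, with almost no difference in replicate 1, and the log2 fold change was -0.55 ± 0.14 (edgeR adjusted p = 0.014). Both calls were lost without replicate 2 (adjusted p = 0.26 in CD8 and 0.19 in CD4 cells), without replicate 3 (0.13 and 0.38) and without scaling beyond total UMIs (0.063 and 0.057), with the fold change between -0.60 and -0.38. In that last setting the log2 fold change was -0.39 in CD8 and -0.38 in CD4 cells, and the median of all genes shifted by 0.18 in both. The CPM given here are likewise scaled by total UMIs alone. Tcf7 was still found in 16.6% ± 2.5 of CD8 PD-1+ and 18.2% ± 2.1 of CD4 PD-1+ cells.

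Of the T-box genes, edgeR called Eomes in both lineages and Tbx21 in neither, and the difference between the 2 genes was not tested. Eomes rose from 94.3, 66.2 and 63.7 CPM in CD8 PD-1- to 129, 156 and 193 CPM in CD8 PD-1+ cells without overlap (log2 fold change 0.99 ± 0.26, edgeR adjusted p = 0.014). This call was lost without replicate 2 (adjusted p = 0.18), without replicate 3 (0.12) and with DESeq2 (0.23), with the fold change between 0.71 and 0.97. In CD4 cells Eomes went from 27.6, 14.6 and 6.85 CPM to 41.3, 56.2 and 47.4 CPM, again without overlap (log2 fold change 1.64 ± 0.31, edgeR adjusted p = 0.00095). Without replicate 2 the value was 1.55 and the adjusted p 0.070. The 3 NK cell markers also moved in CD8 cells, from 26.2 to 46.9 CPM in PD-1- to 87.7 to 158 CPM in PD-1+ cells, as did the 3 γδ T cell markers (12.0 to 30.1 against 52.7 to 79.4 CPM), and their part in the Eomes difference was not tested. In CD4 cells the NK cell markers went from 2.34 to 4.10 CPM in PD-1- to 8.99 to 20.7 CPM in PD-1+ cells, and the CD8 marker list, with Cd8a and Cd8b1 at 0 by the rule, from 1020, 510.5 and 448 CPM to 1636, 2865 and 1598 CPM, and the part of these was not tested either.

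Tbx21 was low and its PD-1 difference was not called. It stood at 14.6, 6.35 and 4.74 CPM in CD8 PD-1- and at 25, 7.52 and 9.78 CPM in CD8 PD-1+ cells, with a log2 fold change of 0.53 ± 0.22 (edgeR adjusted p = 0.13). In CD4 cells it was 13.1, 4.02 and 4.51 against 20.2, 7.77 and 7.66 CPM, with a log2 fold change of 0.60 ± 0.20 (edgeR adjusted p = 0.054). The 95% intervals of the fold change, 0.10 to 0.96 and 0.20 to 1.00 on the log2 scale, contain changes as large as those called for Bcl6, and the difference was called in 4 of 12 alternatives in CD4 and in 1 of 12 in CD8 cells. Only 1.78% to 3.24% of cells in the CD8 and CD4 classes had a UMI after thinning, while 0.677% of B cells did.

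Of the E-protein inhibitors, edgeR called Id2 in both lineages and Id3 in neither, and the difference between the 2 genes was not tested. Id2 went from 161, 117 and 125 CPM in CD8 PD-1- to 250.2, 281 and 266 CPM in CD8 PD-1+ cells, a log2 fold change of 0.84 ± 0.13 (edgeR adjusted p = 0.0003). In CD4 cells it went from 152, 88.2 and 119 CPM to 312, 241 and 274 CPM, a log2 fold change of 1.05 ± 0.13 (edgeR adjusted p = 2.5e-05). In neither lineage did the groups overlap, and both calls held in all 13 alternative analyses. Id3 stood at 20.8, 10.7 and 9.62 CPM in CD8 PD-1- and 16.4, 12.2 and 7.63 CPM in CD8 PD-1+ cells, with overlapping groups and a log2 fold change of -0.28 ± 0.32 (edgeR adjusted p = 0.66). In CD4 cells its log2 fold change was -0.57 ± 0.26 (edgeR adjusted p = 0.17). Part of the Id3 UMIs lay in T cells with UMIs of another type or in both the CD8 and the Treg class. Without these cells Id3 was at 18.7, 6.25 and 6.52 CPM in CD8 PD-1- and 8.98, 5.64 and 7.65 CPM in CD8 PD-1+ cells. In CD4 cells it fell from 22.7, 15.6 and 15.6 to 15.3, 9.37 and 12.0 CPM in PD-1- cells. In CD4 PD-1+ cells it fell from 16.3, 9.97 and 14.2 to 10.8, 3.56 and 9.75 CPM. Id3 was at 62.5, 55.1 and 55.2 CPM in B cells, above every T cell class, so its T cell shares of 2.09% to 2.74% in CD8 and CD4 cells cannot be read against a B cell background, and the same holds for Id2, found in 14.9% of B cells.

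Bcl6 and Prdm1, the opposed repressors, both rose with PD-1. Bcl6 went from 27.9, 32.4 and 33.1 CPM in CD8 PD-1- to 36.4, 60.5 and 72.3 CPM in CD8 PD-1+ cells (log2 fold change 0.70 ± 0.21, edgeR adjusted p = 0.033), and from 65.9, 44.5 and 43.0 CPM to 90.9, 95.5 and 87.0 CPM in CD4 cells (0.70 ± 0.19, adjusted p = 0.014). No PD-1+ value lay within the PD-1- range in either lineage. After thinning, 5.27% of B cells had a Bcl6 UMI, close to the 5.86% of CD8 PD-1- cells. The share was 8.58% in CD4 PD-1-, 11.1% in CD8 PD-1+ and 15.95% in CD4 PD-1+ cells. B cells therefore give no low background for Bcl6. Both Bcl6 calls were lost without replicate 2 (adjusted p = 0.23 in CD8 and 0.28 in CD4 cells) and without replicate 3 (0.38 and 0.20), with the fold change between 0.52 and 0.71. Prdm1 went from 12.8, 4.46 and 5.16 CPM to 21.4, 18.9 and 18.6 CPM in CD8 cells, a log2 fold change of 1.46 ± 0.23 (edgeR adjusted p = 0.0003). In CD4 cells it went from 16.4, 12.5 and 9.44 CPM to 39.9, 36.2 and 28.8 CPM, a log2 fold change of 1.32 ± 0.17 (edgeR adjusted p = 3.25e-05). Neither pair of Prdm1 groups overlapped, and both calls held in all 13 alternative analyses. In B cells Prdm1 stood at 4.83 to 9.85 CPM, which overlaps the CD8 PD-1- levels, so B cells give no low background for that class. After thinning, 0.841% of B cells had a Prdm1 UMI. The share was 1.29% in CD8 PD-1-, 2.19% in CD4 PD-1-, 4.04% in CD8 PD-1+ and 6.83% in CD4 PD-1+ cells. Plasma cells also express Prdm1, and the 3 plasma cell markers went from 155, 22.6 and 6.18 CPM in CD4 PD-1- to 278, 818 and 717 CPM in CD4 PD-1+ cells, while in CD8 cells they went from 253, 272 and 262 CPM to 720.5, 9.60 and 6.92 CPM. Without T cells holding B cell or myeloid UMIs, Prdm1 stood at 14.2, 13.7 and 9.65 CPM in CD4 PD-1- and 43.7, 45.7 and 29.2 CPM in CD4 PD-1+ cells. None of the plasma cell markers entered that filter, and the part of plasma cells in the Prdm1 difference was not tested.

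Batf was found in 13% ± 6.6 of CD8 PD-1+ and 17.4% ± 1.9 of CD4 PD-1+ cells, against 2.97% of B cells. Its levels were 79.7, 33.1 and 36.8 CPM in CD8 PD-1- and 126, 51.6 and 54.1 CPM in CD8 PD-1+ cells, higher in PD-1+ cells of every library but not called (log2 fold change 0.49 ± 0.17, edgeR adjusted p = 0.069). In CD4 cells it went from 76.9, 49.7 and 59.3 CPM to 108, 92.4 and 99.3 CPM without overlap (log2 fold change 0.56 ± 0.15, edgeR adjusted p = 0.015). The CD4 call was lost without replicate 2 (log2 fold change 0.49, adjusted p = 0.25), without replicate 3 (0.58, 0.13) and with classes set on thinned cells (0.50, 0.081).

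**Figure D2:**
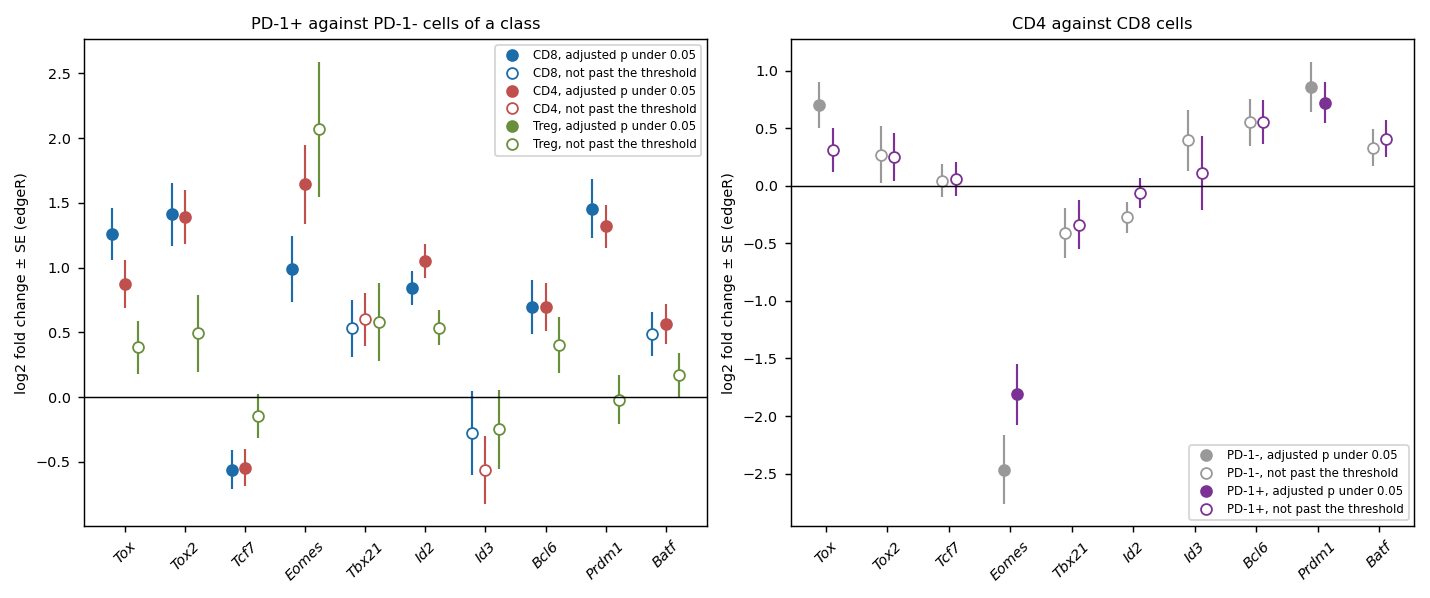
Log2 fold changes (y axis) of the 10 factors (x axis) between PD-1+ and PD-1- cells (left) and between CD4 and CD8 cells (right), with points for the edgeR estimates over 3 libraries and bars for their SE. Filled points passed an adjusted p under 0.05 and hollow points did not, and the PD-1 values of Prdm1 and Id2 in CD8 and CD4 cells lay between 0.84 and 1.46.

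Little difference was found between CD4 and CD8 cells in how these genes changed with PD-1. For the difference between the CD4 and the CD8 fold change, 0% of all genes were called higher and 0% lower by edgeR (690 at an unadjusted p under 0.05), and DESeq2 called 18 genes. None of the 10 members was called by either tool with the filter on low counts or had an unadjusted p under 0.05 there. The largest such difference among the 10 genes was for Eomes, 0.66 ± 0.40 on the log2 scale (edgeR adjusted p = 0.89), with a 95% interval from -0.12 to 1.43, and it was called in 1 of 13 alternatives, without the filter on low counts (0.65, adjusted p = 0.0085). For Bcl6 the interval was -0.56 to 0.57 and for Tcf7 -0.39 to 0.42, so differences within those bounds are not excluded.

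At a given PD-1 status, Eomes was the member of the 10 that differed most between CD8 and CD4 cells. Among PD-1+ cells, CD4 cells held 41.3 to 56.2 CPM and CD8 cells 129 to 193 CPM, a log2 difference of -1.81 ± 0.26 (edgeR adjusted p = 9.1e-05). Among PD-1- cells the values were 6.85 to 27.6 and 63.7 to 94.3 CPM, a log2 difference of -2.47 ± 0.30 (edgeR adjusted p = 1.3e-05). Both calls held in all 13 alternative analyses, none of which removed NK or γδ T cells. The NK cell markers were at 87.7 to 158 CPM in CD8 and 8.99 to 20.7 CPM in CD4 PD-1+ cells. Among PD-1- cells they were at 26.2 to 46.9 and 2.34 to 4.10 CPM. The γδ T cell markers were at 52.7 to 79.4 against 13.9 to 32.1 CPM in PD-1+ and 12.0 to 30.1 against 7.93 to 10.0 CPM in PD-1- cells. The part of these cells in the Eomes difference between CD4 and CD8 cells was not tested. The share of cells with an Eomes UMI was 7.23% ± 1.92 in CD4 PD-1+ and 22.3% ± 2.1 in CD8 PD-1+ cells after thinning, 15.1 percentage points lower (SD of the library differences 0.38) in CD4 cells of all 3 libraries. Among PD-1- cells it was 2.05% against 10.7%, against 0.143% of B cells. The exact two-sided permutation test over 3 libraries cannot give a p below 0.25 (0.5 after adjustment over 20 comparisons), which is the value for both.

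CD4 cells exceeded CD8 cells in Prdm1. The log2 difference was 0.72 ± 0.18 among PD-1+ (edgeR adjusted p = 0.0093) and 0.86 ± 0.22 among PD-1- cells (edgeR adjusted p = 0.012), with no overlap of the levels given above in PD-1+ cells but some in PD-1- cells. The plasma cell markers were at 278, 818 and 717 CPM in CD4 and 720.5, 9.60 and 6.92 CPM in CD8 PD-1+ cells. Among PD-1- cells they were lower in CD4 than in CD8 cells, at 155, 22.6 and 6.18 against 253, 272 and 262 CPM. The part of plasma cells in the Prdm1 difference between CD4 and CD8 cells was not tested. Tox was higher in CD4 than in CD8 cells among PD-1- cells (0.70 ± 0.20, edgeR adjusted p = 0.023), and 16.2% of CD4 against 10.4% of CD8 cells had a Tox UMI, a difference of 5.83 points (SD 0.18) that was positive in all 3 libraries. Among all genes, 8.05% were higher and 7.73% lower in CD4 PD-1+ than in CD8 PD-1+ cells, and 7.12% and 7.14% in the PD-1- comparison. The Prdm1 and Tox calls were lost without replicate 2 (adjusted p = 0.059 and 0.21 for Prdm1 in PD-1+ and PD-1- cells and 0.28 for Tox), without replicate 3 (0.059, 0.097 and 0.18), with cells held within the study's own limits (0.26, 0.21 and 0.084) and with classes set on thinned cells. In the last setting the log2 differences were 0.15 and 0.83 for Prdm1 and 0.25 for Tox, and without replicate 2 or 3 they ran from 0.55 to 0.88.

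The remaining members did not pass the threshold between CD4 and CD8 cells. Bcl6 was nearest, with a log2 difference of 0.55 ± 0.19 among PD-1+ cells (edgeR adjusted p = 0.061) and 0.55 ± 0.20 among PD-1- cells (0.078), and it was higher in CD4 cells of all 3 libraries in both. Batf differed by 0.41 ± 0.16 among PD-1+ cells (edgeR adjusted p = 0.099). Without replicate 1, PD-1+ CD4 cells exceeded CD8 cells in Batf (0.77, adjusted p = 5.0e-05), Tox (0.42, 0.032) and Bcl6 (0.36, 0.011). Tcf7 was close to level, with log2 differences of 0.06 (95% interval -0.24 to 0.35) among PD-1+ and 0.05 (-0.23 to 0.32) among PD-1- cells.

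Regulatory T cells held less Tcf7 than CD4 cells and, while PD-1-, more Prdm1 and Id2. Tcf7 stood at 60.1, 89 and 79.9 CPM in Treg PD-1- cells, all below the 158 to 172 CPM of CD4 PD-1- cells (log2 difference -1.18 ± 0.16, edgeR adjusted p = 5.8e-05). Prdm1, at 41.2, 35.3 and 22.6 CPM, was higher by 1.23 ± 0.20 (edgeR adjusted p = 0.00036), although not when classes were set on thinned cells (0.66, adjusted p = 0.25). Id2, at 242, 242 and 183 CPM, was higher by 0.78 ± 0.14 (edgeR adjusted p = 0.00071). These were 2 members higher and 1 lower, against 5.51% and 5.11% of all genes, and the Tcf7 and Id2 calls held in all 13 alternative analyses. The CD4 class may hold Treg cells whose Foxp3 was not captured. The Treg markers summed to 555 to 902 CPM in CD4 PD-1- and 1013 to 1132 CPM in CD4 PD-1+ cells. In Treg cells they summed to 2000 to 2806 CPM. The same markers also rose in CD8 cells, from 416 to 566 CPM in PD-1- to 723 to 858 CPM in PD-1+ cells. The part of Treg cells in the PD-1 differences of CD4 cells was not tested.

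Among PD-1+ cells, Treg held less Tox2 and Tcf7 than CD4 cells. Tox2 was at 29.1, 18.2 and 24.8 CPM (log2 difference -1.03 ± 0.22, edgeR adjusted p = 0.0072) and Tcf7 at 80.2, 61.8 and 79.1 CPM (-0.78 ± 0.16, adjusted p = 0.0040), every value below the CD4 PD-1+ range. These were 2 members lower, while 3.31% of all genes were higher and 3.10% lower. Both calls were lost without replicate 2 (-0.92 and -0.73, adjusted p = 0.15 and 0.098), with classes set on thinned cells (-1.37 and -1.0, 0.0998 and 0.13) and with cells held within the study's limits (-0.89 and -0.41, 0.25 and 0.35). Eomes was scarce in Treg, at 0.858, 3.87 and 9.43 CPM in PD-1- and 18.5, 31.9 and 21.9 CPM in PD-1+ cells. Leaving out T cells with UMIs of another type or of both the CD8 and the Treg rule brought the PD-1+ values down to 12.2, 22.1 and 20.1 CPM. The PD-1- values went up to 1.13, 7.465 and 11.9 CPM, so the difference was smaller from both sides.

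Prdm1 did not follow PD-1 in Treg as it did in CD4 cells. It was 41.2, 35.3 and 22.6 CPM in Treg PD-1- and 44.1, 24.2 and 32.6 CPM in Treg PD-1+ cells, higher in PD-1+ cells of 2 of 3 libraries, with a log2 fold change of -0.02 ± 0.19 (edgeR adjusted p = 1). The fold change in Treg was lower than that in CD4 cells by a log2 difference of -1.34 ± 0.26 (edgeR adjusted p = 0.024), a comparison added after the Treg levels had been seen, in which 0.203% of all genes were higher and 0.120% lower. The call was lost in 6 of 13 alternatives, among them without replicate 2 (-1.02, adjusted p = 0.84) and without replicate 3 (-1.57, 0.27). The plasma cell markers were at 5.15, 298 and 6.74 CPM in Treg PD-1- and 1321, 556 and 7.25 CPM in Treg PD-1+ cells. The part of plasma cells in this comparison was not tested. Id2 in Treg was 242, 242 and 183 CPM in PD-1- and 301, 372 and 306 CPM in PD-1+ cells, without overlap and with a log2 fold change of 0.54 ± 0.13 that missed the threshold (edgeR adjusted p = 0.091), while 6 of 13 alternatives called it, DESeq2 among them (adjusted p = 0.034). Without replicate 1, edgeR called Id2 (0.63, adjusted p = 0.036), Eomes (1.87, 0.034) and Bcl6 (0.60, 0.0065) in Treg.

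Shares of several members changed further with the number of Pdcd1 UMIs. In thinned CD4 cells, the share with a Tox UMI was 17.5% ± 7.6 (SD, n = 3) at 0 Pdcd1 UMIs, 29.2% ± 9.4 at 1, 30.1% ± 9.8 at 2 and 39.4% ± 10.4 at 3 or more. Id2 went from 17.8% ± 4.5 to 42.6% ± 2.2 over the same range, Bcl6 from 9.33% ± 1.55 to 25% ± 4 and Eomes from 2.63% ± 1.18 to 10.6% ± 3.7. Bcl6 did not rise steadily, at 16.8% ± 2.7 with 1 and 13.3% ± 0.5 with 2 Pdcd1 UMIs. Tcf7 went down, from 26.0% ± 0.7 to 14.7% ± 3.6. In CD8 cells Eomes went from 12.1% ± 2.3 to 28.0% ± 13.9, Bcl6 from 6.21% ± 1.04 to 18.2% ± 6.0 and Tox from 11.9% ± 8.9 to 31.2% ± 17.7, while Tcf7 went from 24.3% ± 1.8 to 15.4% ± 3.9. The CD8 share of Tox was level between 1 and 2 Pdcd1 UMIs, at 23.5% ± 12.6 and 23.3% ± 8.0. In replicate 1 the CD8 share of Eomes was 14.8%, 18.5%, 35.1% and 12.9% over the 4 bins, so its top bin of 31 cells lay below that at 0 UMIs, whereas replicates 2 and 3 went from 11% to 40.4% and from 10.6% to 30.6%. For Tcf7 most of the step lay between 0 and 1 UMI in both lineages, at 16.8% ± 2.2 in CD8 and 17.3% ± 3.9 in CD4 cells with 1. The top bin held as few as 27 CD4 cells and 31 CD8 cells in a library, which limits the precision there.

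**Figure D3:**
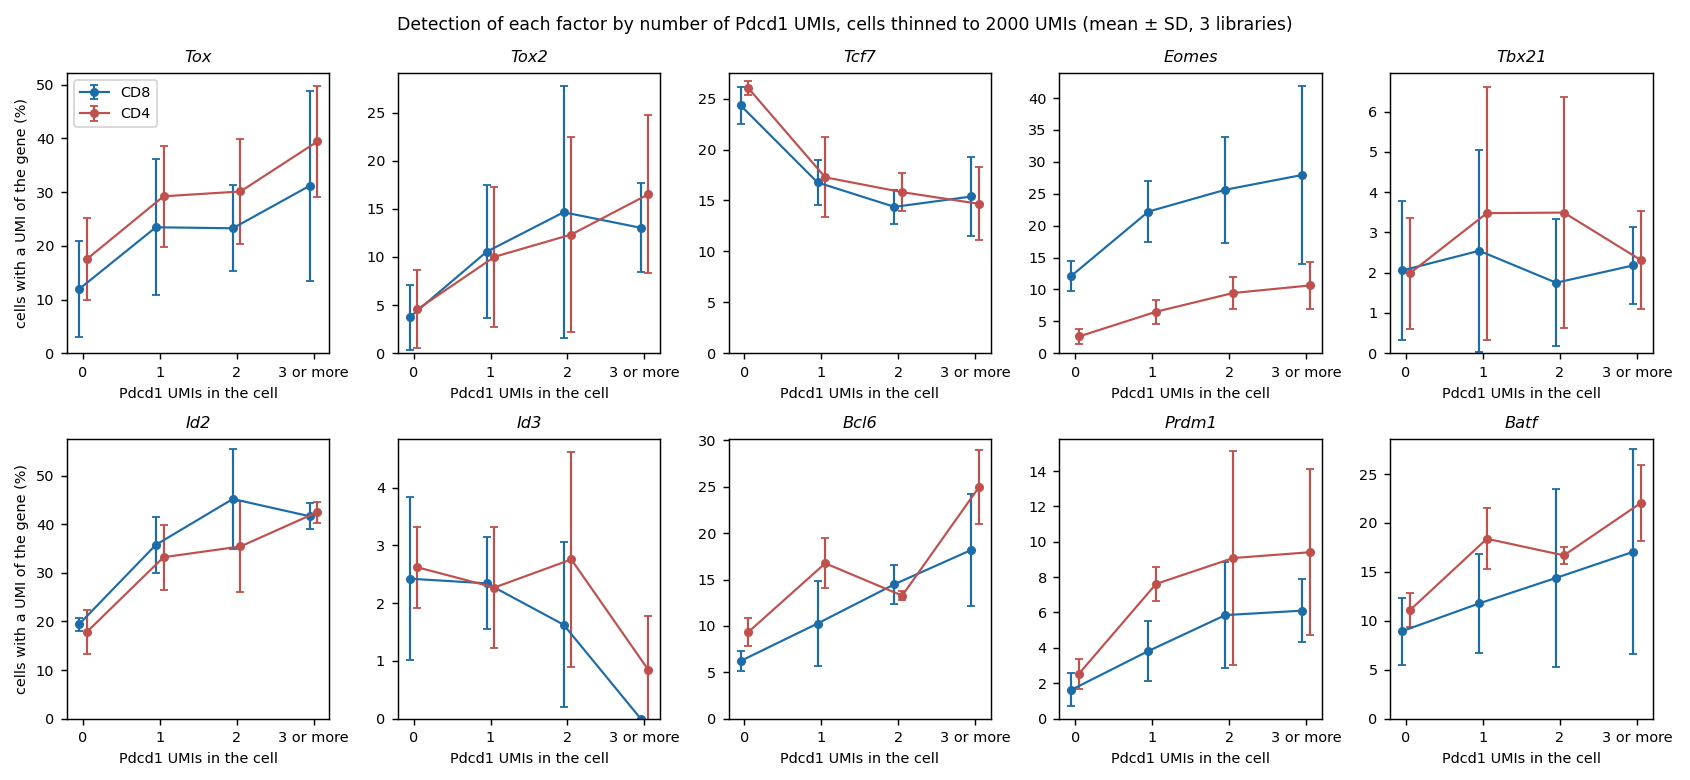
Share of cells with a UMI of each factor (y axis, percent) by the number of Pdcd1 UMIs (x axis) in CD8 and CD4 cells thinned to 2000 UMIs, with the mean of 3 libraries as a line and the SD as bars. In CD4 cells Tox went from 17.5% to 39.4% and Tcf7 from 26.0% to 14.7%.

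Single cells show which factors were found together. For each pair, the number of cells with a UMI of both was set against the number that independence within each library would give, and the association was expressed as a log2 odds ratio per library, with 0.5 added to each of the 4 cell counts. These are values across cells of 3 libraries and no test was made. Of the 45 pairs, 31 in CD8 PD-1+ and 39 in CD4 PD-1+ cells had at least 5 cells expected over the 3 libraries. In CD8 PD-1+ cells 11 of the 31 were above and 5 below 0 in all 3 libraries, and in CD4 PD-1+ cells 15 and 9 of the 39. The depth of a cell before thinning, its library and its stage are shared by all pairs.

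Bcl6 and Prdm1, which rose together in the sums, were almost never found in the same cell. Among CD4 PD-1+ cells both were seen in 0, 1 and 2 cells of replicates 1, 2 and 3, where 4.38, 8.06 and 6.85 were expected (mean log2 odds ratio -2.69 ± 0.95, SD, n = 3). Among CD8 PD-1+ cells there was 1 such cell in all, with 5.07 expected. Tcf7 and Prdm1 were equally apart, with 1, 1 and 2 CD4 PD-1+ cells where 5.27, 8.06 and 8.34 were expected (-2.36 ± 0.37), and 1 CD8 PD-1+ cell where 7.32 were expected (-2.07 ± 0.59). Of the 122 CD4 PD-1+ cells with a Prdm1 UMI, 4 also had one of Tcf7 and 3 one of Bcl6. With cells thinned to 1000 UMIs the CD8 value of Bcl6 and Prdm1 turned to 0.96, so it rests on too few cells to give a direction.

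Promoter windows of these 3 genes are shown because Prdm1 RNA was found apart from that of Tcf7 and Bcl6 in single cells. Much of the Tcf7 window reads as coding sequence, as described after the windows. They are the 250 bases before a RefSeq start in GRCm38.p6, on the gene's own minus strand, with capitals where a script found any of 4 motifs on either strand: TTCNNNGAA (bound by STAT factors), TGANTCA (AP-1, the family of BATF), CAGCTG (an E box, bound by E proteins) and CTTTGA (bound by TCF-1 and LEF-1).
Bcl6, chr16:23981284-23981533, at a start within the gene: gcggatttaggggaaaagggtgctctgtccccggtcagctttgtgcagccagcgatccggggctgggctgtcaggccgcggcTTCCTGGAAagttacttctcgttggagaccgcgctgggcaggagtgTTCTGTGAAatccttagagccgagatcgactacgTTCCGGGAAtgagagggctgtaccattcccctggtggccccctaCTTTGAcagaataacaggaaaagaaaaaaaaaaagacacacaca
Prdm1, chr10:44458749-44458998, at a start within the gene: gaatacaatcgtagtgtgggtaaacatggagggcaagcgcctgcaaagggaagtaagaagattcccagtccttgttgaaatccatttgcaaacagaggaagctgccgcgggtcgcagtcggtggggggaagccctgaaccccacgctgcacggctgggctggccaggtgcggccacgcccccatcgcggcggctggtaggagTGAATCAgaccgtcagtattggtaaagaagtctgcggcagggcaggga
Tcf7, chr11:52283015-52283264, at the gene's outer start: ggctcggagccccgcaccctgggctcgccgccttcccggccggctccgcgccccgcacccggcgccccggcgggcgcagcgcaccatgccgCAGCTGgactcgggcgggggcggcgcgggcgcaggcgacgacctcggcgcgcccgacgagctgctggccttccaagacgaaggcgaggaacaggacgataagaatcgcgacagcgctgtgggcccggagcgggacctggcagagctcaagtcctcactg

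The Bcl6 window held 3 matches of TTCNNNGAA and 1 of CTTTGA. Of 32851 RefSeq promoter windows of this length, 7.02% held TTCNNNGAA and 0.0274% held it 3 times or more. The outer Bcl6 start, at chr16:23988853-23989102, held 1 match. The Prdm1 window held 1 TGANTCA, as 6.75% of all windows did, while 13.8% held CTTTGA. In the Tcf7 window 1 CAGCTG was found, as in 13% of windows, but it lies just after an ATG. From that ATG an open reading frame runs to the end of the window, so the match sits in what reads as coding sequence. Another Tcf7 start, at chr11:52282596-52282845 within the gene, held 0 matches of any of these motifs. The table had windows for 9 of the 10 genes, 15 in all, and a match says only that these letters are there.

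Tcf7 lay apart from the effector-linked inhibitor Id2 and, in CD4 cells, together with Id3. In CD4 PD-1+ cells Tcf7 and Id2 were found together in 83 cells where 115 were expected (-0.84 ± 0.24), and in CD8 PD-1+ cells in 43 where 64.4 were expected (-0.96 ± 0.74), below 0 in all 3 libraries of both. Tcf7 and Id3 were found together in 5, 7 and 4 CD4 PD-1+ cells where 1.42, 2.74 and 2.72 were expected (2.00 ± 1.19). Before thinning, CD4 PD-1+ cells held 34, 68 and 117 Id3 UMIs, and 17, 17 and 65 without cells that held UMIs of another type. Id2 and Id3 shared 3 CD8 PD-1+ cells where 7.75 were expected (-1.33 ± 0.29).

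Tox and Tcf7 were found together about as often as independence gives. In CD4 PD-1+ cells the pair was found in 100 cells, with 94.2 expected (0.11 ± 0.21), and in CD8 PD-1+ cells in 36, with 38.9 expected (-0.039 ± 0.75), with libraries on both sides of 0. Tox instead went with Tox2, in 67 CD4 PD-1+ cells where 49.2 were expected (0.79 ± 0.57) and 34 CD8 PD-1+ cells where 24.8 were expected (0.95 ± 0.55). It also went with Eomes, in 50 cells for 40.5 expected (0.54 ± 0.21) and in 75 for 50.4 expected (0.99 ± 0.58).

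In CD4 PD-1+ cells each pair among Eomes, Id2 and Prdm1 was found together more often than independence gives. Cells with UMIs of all 3 genes were not counted. Eomes and Id2 shared 79 CD4 PD-1+ cells for 49.2 expected (1.41 ± 0.79) and 115 CD8 PD-1+ cells for 86.2 expected (0.90 ± 0.13). Id2 and Prdm1 shared 67 CD4 PD-1+ cells for 40.0 expected (1.31 ± 0.62), and Eomes and Prdm1 shared 21 for 9.31 expected (1.73 ± 0.83). Tox2 and Eomes shared 4, 14 and 11 CD4 PD-1+ cells for 2.78, 5.10 and 4.64 expected (1.47 ± 0.61). Prdm1 and Batf shared 33 for 20.8 expected (0.92 ± 0.23). All of these were above 0 in each of the 3 libraries, but Tox2 with Eomes in CD4 cells stood at -0.092 with cells thinned to 1000 UMIs.

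**Figure D4:**
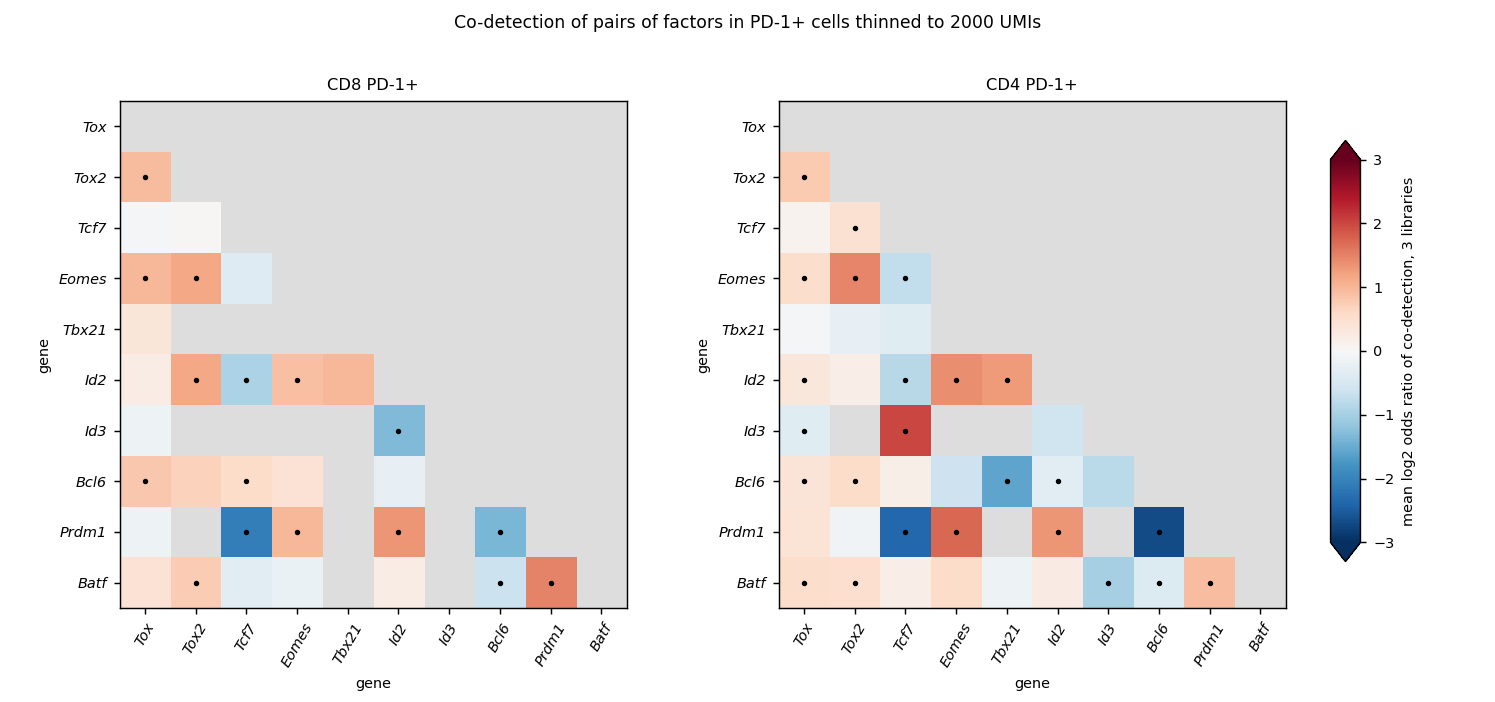
Mean log2 odds ratio over 3 libraries (colour, with arrows at the ends of the scale for values past 3) that a cell thinned to 2000 UMIs had UMIs of both factors of a pair (x and y axes) in CD8 PD-1+ and CD4 PD-1+ cells. A black dot marks the same sign in all 3 libraries, grey marks pairs under 5 expected cells or not plotted, and Prdm1 with Tcf7 (-2.36 in CD4 cells) and with Bcl6 (-2.69) are the deepest blue.

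The factors were also paired with 19 surface and effector genes. Havcr2 and Entpd1 encode TIM-3 and CD39, which mark terminally exhausted cells, and both were scarce in cells with Tcf7. Of 1101 CD8 PD-1+ cells thinned to 2000 UMIs, 0 held a UMI of both Tcf7 and Havcr2, where 12.3 were expected (-3.40 ± 0.56). With 0 such cells in every library, that value and its SD rest on the added 0.5 and the numbers of cells with each gene. A count of 0 over the pooled cells of 3 libraries allows up to 0.272% of cells with both UMIs at this depth. This limit does not bound the cells that carry both RNAs. Tcf7 and Entpd1 shared 2 CD8 PD-1+ cells for 14.4 expected (-2.87 ± 1.54) and 5 CD4 PD-1+ cells for 19.9 expected (-2.40 ± 1.33). Tcf7 and Gzmb, the gene of granzyme B, shared 4 CD8 PD-1+ cells for 17.9 expected (-2.49 ± 1.47). With Slamf6, a surface marker of stem-like cells, Tcf7 shared 34 CD8 cells for 26.6 expected (0.51 ± 0.30) and 98 CD4 cells for 78.2 expected (0.54 ± 0.28).

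Bcl6 resembled Tcf7 in this respect in CD4 cells, and Prdm1 was its opposite. In CD4 PD-1+ cells Bcl6 shared 4 cells with Havcr2 for 19.1 expected (-2.88 ± 1.91), and 3 with Ifng, the gene of interferon-γ, for 16.8 expected (-2.42 ± 0.66). Prdm1 shared 34 cells with Havcr2 for 7.78 expected (3.00 ± 0.24) and 71 with Lag3, which encodes an inhibitory receptor, for 24.0 expected (2.66 ± 0.62). In CD8 PD-1+ cells Prdm1 shared 23 cells with Lag3 for 8.04 expected (2.49 ± 0.52). Id2 went with Havcr2 as well, in 80 CD4 cells for 39.5 expected (2.11 ± 0.23) and 44 CD8 cells for 26.3 expected (1.33 ± 1.03).

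Eomes went with Gzmk in both lineages. It shared 76 CD4 PD-1+ cells with this gene of granzyme K, where 22.7 were expected (3.17 ± 0.60), so that 76 of the 154 cells with Eomes also had a Gzmk UMI. In CD8 PD-1+ cells the pair was found in 94 cells for 66.2 expected (0.99 ± 0.18). Eomes was scarce with Il7r, which encodes the IL-7 receptor of resting and memory cells, in 10 CD4 cells for 38.2 expected (-2.04 ± 0.47) and 24 CD8 cells for 50.1 expected (-1.45 ± 0.89). Tox and Tox2 were likewise below 0 with Il7r in all 3 libraries of both lineages, and Tox went with Tigit in CD8 PD-1+ cells, in 21 for 12.6 expected (1.14 ± 0.39).

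**Figure D5:**
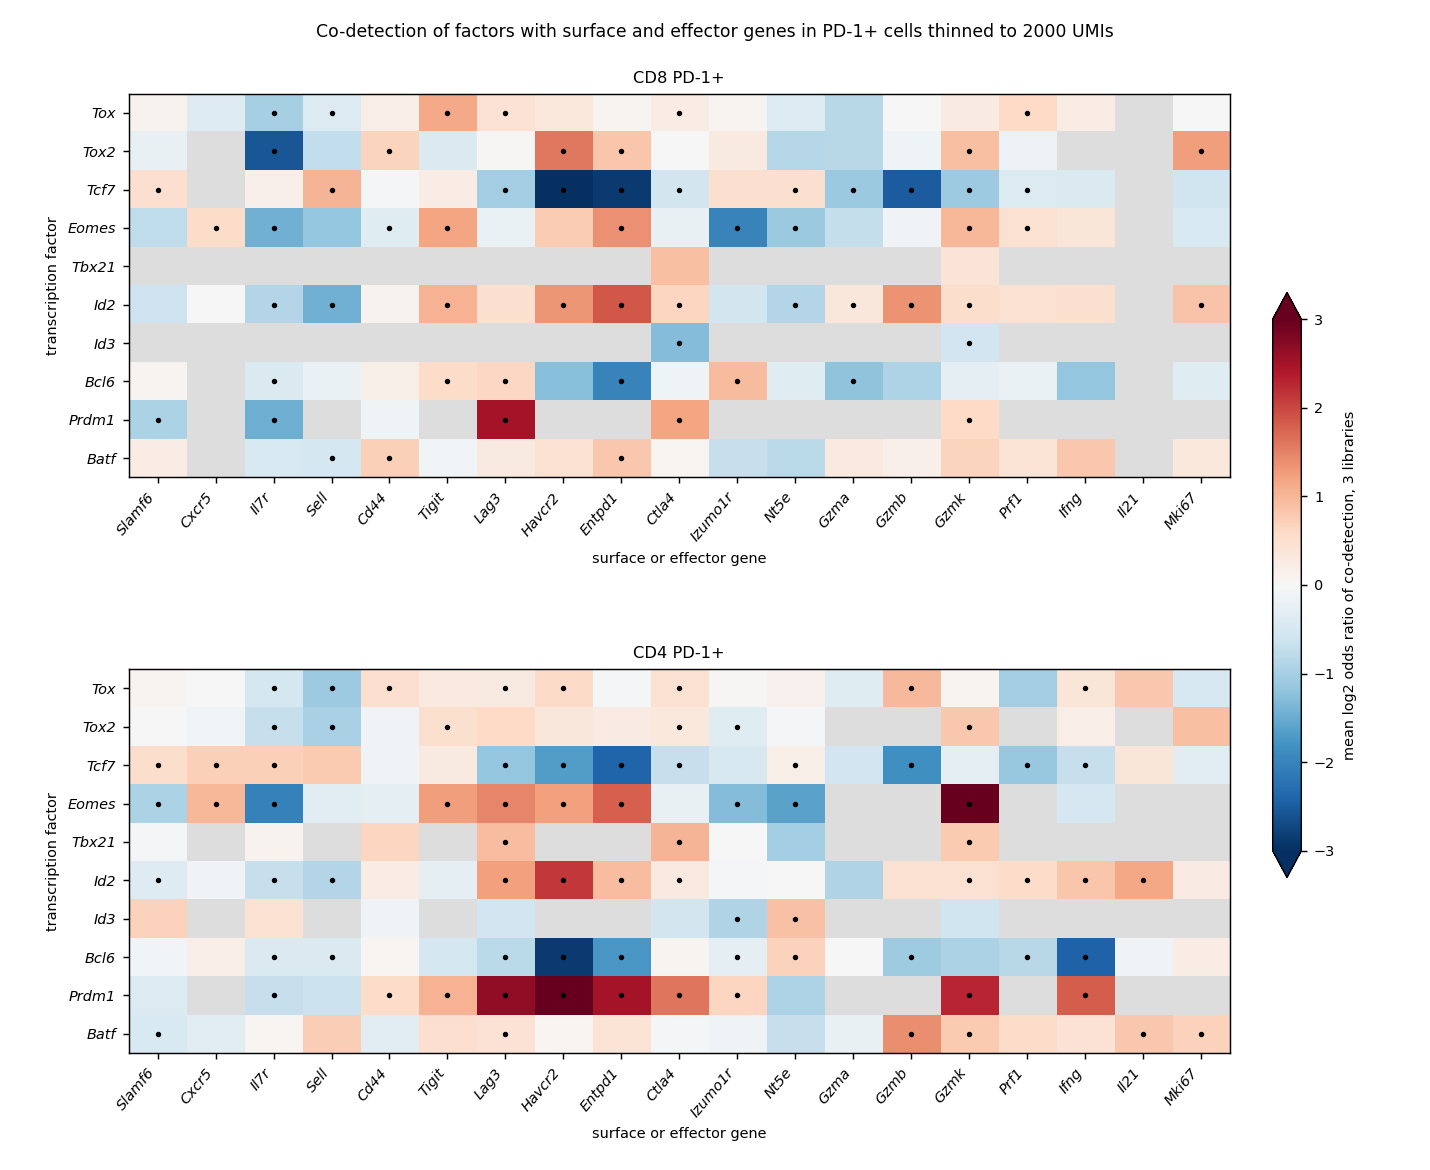
Mean log2 odds ratio over 3 libraries (colour, with arrows at the ends of the scale for values past 3) of finding a factor (y axis) and a surface or effector gene (x axis) in the same PD-1+ cell thinned to 2000 UMIs. Black dots mark the same sign in all 3 libraries and grey pairs under 5 expected cells, and Eomes with Gzmk reached 3.17 in CD4 cells while Tcf7 with Havcr2 stood at -3.40 in CD8 cells.

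Of 30 further factors of the same network, 27 could be tested. In PD-1+ against PD-1- cells 6 were higher and 7 lower in CD8, 7 and 5 in CD4 and 0 and 3 in Treg cells, where 6.27% and 7.32%, 7.60% and 8.03%, and 0.148% and 0.452% of all genes were. Lef1, the relative of Tcf7, fell by more than Tcf7 itself, with log2 fold changes of -1.84 ± 0.13 in CD8 and -2.08 ± 0.13 in CD4 cells (edgeR adjusted p = 7.4e-08 and 9.0e-09). Klf2, which keeps circulating cells out of tissue, changed by -1.45 ± 0.11 and -1.53 ± 0.11 (7.4e-08 and 1.9e-08). Ikzf2 rose by 1.55 ± 0.25 and 1.28 ± 0.25 (0.00041 and 0.0014) and Zeb2, a partner of T-bet, by 1.45 ± 0.19 and 1.16 ± 0.18 (4.5e-05 and 0.00024).

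Between CD4 and CD8 cells, 8 of the 27 were higher and 6 lower in CD4 PD-1+ cells, and 7 and 5 among PD-1- cells, against 8.05% and 7.73%, and 7.12% and 7.14%, of all genes. Maf was higher in CD4 PD-1+ cells by 2.87 ± 0.23 on the log2 scale and Zbtb7b, which encodes the CD4 lineage factor ThPOK, by 2.65 ± 0.54 (edgeR adjusted p = 7.9e-08 and 0.0020). Hopx was lower by -1.58 ± 0.18 and Batf3 by -2.16 ± 0.50 (4.3e-06 and 0.0056). Zbtb7b and Batf3 were low, at most 5.28 CPM in CD4 and 13.5 CPM in CD8 PD-1+ cells.

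The genes whose levels tracked a member most closely over the 18 sums, after each library's mean was subtracted, were given by Pearson's r of log2(CPM + 1) among 5924 genes, as a description over points that share 3 libraries. They were Ghitm, Dusp4 and Hccs for Tox (0.96 to 0.97), Smap1, Fyn and Nfat5 for Tox2 (0.94 to 0.95) and Ncald, Sult2b1 and Kcnn4 for Eomes (0.93 to 0.94). For Prdm1 they were Xlr4a, S100a4 and Dynlrb1 (0.96), for Id2 Impa2, Bcl2l1 and Tmem256 (0.94 to 0.95) and for Bcl6 Ypel3, Kdm2b and Purb (0.95). Tbx21 was nearest to Zeb2 (0.91), Rnf166 and Nr4a2 (both 0.88), and Batf to Pqlc1, Cox7c and Hccs (0.92 to 0.93). The genes nearest to Tcf7 were the mitochondrial mt-Atp6 and mt-Co3 (both 0.92) and mt-Co2 (0.88). Those nearest to Id3 were Pik3ap1 (0.85), Lyz2 (0.83) and H2-DMa (0.79), which B or myeloid cells express, and the myeloid markers reached 199 CPM in the Treg PD-1- sum of replicate 2.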

How the data were processed

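Droplet 3′ single-cell RNA sequencing of CD45+ islet cells gave 3 libraries of 1 condition, with 33851381, 74775394 and 80806452 UMIs in replicates 1, 2 and 3. The deposited values are raw UMI counts per gene and cell, which the authors made with Cell Ranger 6.0.1 on mm10 by the submitters' processing notes. The 10 members and all gene lists were chosen with earlier results of these data known. Cells with under 1000 UMIs or at least 10% mitochondrial UMIs were left out (805 of 26947). No doublet caller was run. T cells with at least 2 UMIs of B cell (Cd79a, Cd79b, Ms4a1) or myeloid genes (Lyz2, C1qa, C1qb), or in both the CD8 and the Treg class, were left out as an alternative instead.

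UMI counts were summed per library and class into 18 sums and scaled to counts per 1000000 UMIs (CPM). edgeR 4.0.16 (R 4.3.3; filterByExpr, TMM scaling, quasi-likelihood test) was fitted to all sums with a term for the library (the block), with Benjamini-Hochberg adjustment over 10839 genes. The standard error was the log2 fold change over the square root of the F statistic, and 95% intervals took 1.96 of it. The classes of a library come from the same pooled mice, which pairs them: deviations from class means correlated at 0.17 to 0.668 within a library (45 pairs of sums). Between libraries they correlated at -0.541 to 0.342 (90 pairs). The deviations of a class add up to 0 over the 3 libraries, so the values between libraries follow in part from those within and are no separate evidence. The libraries came from 2 experiments by the study's methods, with no record in the sources used here of which came from which, so the experiment could not be a term of its own, although each comparison is made within libraries. The p-values rest on the spread left between the sums after the class and library terms. That is how far class differences vary from library to library, pooled over the classes, and it may be partly technical. Counting limits cover counting error only. On simulated counts for CD4 PD-1+ against CD8 PD-1+ cells, with 200 of 10839 genes changed, 71% of 2-fold and 97% of 4-fold changes were recovered, with 9 false calls. The simulated sums had no library effect and no other difference between classes. Each gene took the spread typical of its level, not its own. These rates therefore do not give the power of the comparisons on the real sums.

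Shares and co-detection used cells thinned to 2000 UMIs, leaving out shallower cells (0 to 29 per class). All 10 members are named. Of 30 further factors the 8 past the threshold with the largest log2 change in CD4 PD-1+ against CD8 PD-1+ or in a PD-1 comparison were named, and for each member the 3 genes with the highest r at 20 CPM or more in a class. Alternatives were DESeq2 1.42.0, another scaling or none beyond total UMIs, no filter, no block, B cell sums in the fit and each library left out. Others were the study's cell limits (200 to 5000 genes, fewer than 6000 UMIs, mitochondrial UMIs below 5% and ribosomal UMIs above 5%) and other class rules. Promoters were read from RefSeq windows with Python 3.11.15.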

Additional observations from a re-analysis of the deposited data

Results flagged for a closer look

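The PD-1 difference of Prdm1 differed between Treg and CD4 cells. Prdm1 was 1.34 lower on the log2 scale for Treg than for CD4 cells in the test of the difference itself (-1.34 ± 0.26, SE, n = 3 libraries; edgeR adjusted p = 0.024). By library the log2 ratio of PD-1+ to PD-1- cells was 0.095, -0.53 and 0.51 in Treg and 1.23, 1.46 and 1.51 in CD4 cells, so each CD4 value exceeded each Treg value. The comparison was added after the levels had been seen, and the part of plasma cells in it was not tested. Over 13 alternatives the difference ran from -1.75 to -0.91 and its call was lost without the block, with B cell sums in the fit, within the study's cell limits, with classes set on thinned cells, without replicate 2 (-1.02) and without replicate 3 (-1.57).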

How the results depend on the processing

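Of 26 member calls, 8 held in all 13 alternatives, and 62 alternative values lost and 51 gained a call. None of 1143 alternative values changed the sign of a called member, while 70 changed that of an uncalled one (lowest adjusted p 0.087). Of 140 alternative share differences 15 changed sign, the largest at 2.87 points. The genes called per comparison moved by over 1.5 times in 56 of 117 alternative counts, and the cause was not tested except where fewer genes, cells or samples entered.

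Without the replicate block, the library pairing was ignored and the calls were 442 of 1710 (CD4 against CD8, PD-1+), 375 of 1546 (PD-1-), 180 of 1473 (PD-1 in CD8), 180 of 1694 (PD-1 in CD4), 1 of 65 (PD-1 in Treg), 91 of 695 (Treg against CD4, PD-1+), 203 of 1151 (PD-1-) and 0 of 35 (PD-1 in Treg against CD4), and 0 as before for PD-1 in CD4 against CD8. In this order, leaving out a library gave 559 to 1805, 516 to 1790, 347 to 1775, 361 to 2317, 1 to 227, 159 to 987, 286 to 1503 and 0 to 390, and 0 to 108 for PD-1 in CD4 against CD8. The highest counts were without replicate 1. Classes set on thinned cells gave 463, 497, 282, 513 and 41, 199, 442 and 7, and 9 for PD-1 in CD4 against CD8. The study's cell limits gave 523, 595 and 749 for the first 3, 25 for PD-1 in Treg, 442 and 722 for Treg against CD4, and 14 for PD-1 in CD4 against CD8. That last count was 18 with DESeq2, 3 with PD-1+ at 2 UMIs, 3 without T cells holding UMIs of another type and 161 without the filter on low counts.

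Without the filter 1081 genes were called for Treg against CD4 at PD-1+, 304 for PD-1 in Treg and 380 for PD-1 in Treg against CD4. The last was 86 with DESeq2, 53 without scaling beyond total UMIs and 0 with B cell sums in the fit. PD-1 in Treg was 20 with B cell sums and 42 without scaling beyond total UMIs. Without scaling beyond total UMIs, the median of all genes shifted by up to 0.18 (log2). The share of calls that were higher then went from 51.0% to 69.1%, 49.9% to 68.5%, 46.2% to 80.8%, 48.6% to 82.0% and, for Treg against CD4 at PD-1-, 51.9% to 78.0%. In CD8 PD-1+ cells 14 of 45 pairs lay above 0 in every library, and 27 without thinning. At 1000 UMIs the log2 odds ratio turned to 0.957 (Bcl6 and Prdm1, CD8), -0.147 (Tox and Bcl6, CD4), -0.797 (Tox2 and Bcl6, CD4) and -0.0915 (Tox2 and Eomes, CD4), and 420 of 476 co-detection values moved by less than the spread between libraries. Depth limits what can be said of the genes found in few T cells, Tbx21 and Id3 among them.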
